A study of Mus musculus with 6 samples.

Results

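The proteasome genes of the mouse testis, with the testis subunit gene Psma8 among them, were described in 3 control-FMT and 3 alcohol-FMT mice. The genes were taken by name from the protein-coding genes of the table as every symbol of the form Psma to Psmg followed by a number, with at most 1 letter after it, whatever their values. This gave 49 genes of 54532 in the table, of which 22046 are protein-coding. By role they were 8 genes of the alpha ring, 7 constitutive genes of the beta ring, 4 immune and thymic beta genes, 6 base ATPases, 3 other base genes, 8 lid genes, 7 assembly factors, and 6 activators and inhibitor.

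The recipients were male C57BL/6 mice that were 3 weeks old at the start, shared a cage for 2 weeks, drank distilled water, and were then given fecal microbiota of donor mice by gavage for 10 weeks, with no antibiotics beforehand. The donors of the control-FMT mice drank water, and those of the alcohol-FMT mice drank 10% ethanol, for 10 weeks according to the methods and 8 weeks according to the sample records. Total RNA of whole testis was sequenced from mice 16, 19 and 21 of the control-FMT group and mice 18, 24 and 31 of the alcohol-FMT group, with 1 library for each mouse. Levels are given as FPKM, the fragments of a gene per kilobase of its length, scaled to the depth of the library, and the libraries held 16504096 to 18633124 fragments in genes.

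The proteasome is the protease that breaks down proteins tagged with ubiquitin. Its core particle is a barrel of stacked alpha and beta rings, in which the beta subunits Psmb5, Psmb6 and Psmb7 carry the chymotrypsin-like, caspase-like and trypsin-like activities. The regulatory particle caps the barrel, with a base of ATPases that unfold the substrate and a lid that removes the ubiquitin, and other activators open the core without it. In male germ cells the alpha subunit Psma8 takes the place of Psma7 in part of the core particles, and in mice it is needed for meiosis, while the activator Psme4 serves the removal of histones in spermatids. Immune cells exchange the catalytic subunits for Psmb8, Psmb9 and Psmb10, and the thymus uses Psmb11.

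The sequence before the start of 4 members is printed to show what lies upstream of a catalytic pair (Psmb6 and Psmb5), of a ubiquitin receptor gene that was higher at an unadjusted p (Psmd4), and of the alpha ring gene of highest level (Psma6). The sequences are RefSeq's on GRCm38.p6 and run 5′ to 3′ on the gene's strand up to the base before the start, with 250 bases each. Psmb6 lies on the plus strand at chr11:70525107-70525356, Psmb5 on the minus strand at chr14:54617996-54618245, Psmd4 on the minus strand at chr3:95042615-95042864 and Psma6 on the plus strand at chr12:55383972-55384221. Capitals mark matches to the core of the antioxidant response element, TGACNNNGC, in Psmb6 and Psmb5, and to the CCAAT box in Psmd4 and Psma6, where ATTGG is the box on the other strand.
Psmb6: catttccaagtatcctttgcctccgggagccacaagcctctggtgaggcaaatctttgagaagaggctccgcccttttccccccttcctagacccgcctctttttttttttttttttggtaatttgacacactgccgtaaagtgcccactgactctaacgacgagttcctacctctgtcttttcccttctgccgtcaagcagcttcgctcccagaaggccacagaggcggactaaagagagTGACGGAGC
Psmb5: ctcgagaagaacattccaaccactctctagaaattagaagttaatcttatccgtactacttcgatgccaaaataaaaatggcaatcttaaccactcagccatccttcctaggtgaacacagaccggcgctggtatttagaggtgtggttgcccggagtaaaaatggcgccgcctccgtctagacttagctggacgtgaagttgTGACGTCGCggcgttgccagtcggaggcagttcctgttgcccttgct
Psmd4: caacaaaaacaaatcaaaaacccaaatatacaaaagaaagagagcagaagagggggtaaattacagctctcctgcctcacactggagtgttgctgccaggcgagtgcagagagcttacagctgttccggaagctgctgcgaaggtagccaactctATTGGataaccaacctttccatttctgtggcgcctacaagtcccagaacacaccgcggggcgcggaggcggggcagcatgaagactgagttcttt
Psma6: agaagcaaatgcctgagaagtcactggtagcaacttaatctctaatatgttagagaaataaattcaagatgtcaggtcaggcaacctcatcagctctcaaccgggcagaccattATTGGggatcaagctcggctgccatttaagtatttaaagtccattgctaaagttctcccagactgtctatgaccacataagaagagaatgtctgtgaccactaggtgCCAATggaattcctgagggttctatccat

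The antioxidant response element core is the letters to which factors of the Nfe2l family, known regulators of proteasome genes in mammals, bind. RefSeq's table held a promoter of 41 of the 49 members, and Psma8, Psmb1, Psmb2, Psmb7, Psmc3, Psmd3, Psmd7 and Psmg2 were not matched. On either strand, TGACNNNGC stood within 250 bases of the start of 5 of these 41 members, namely Psmb5, Psmb6, Psmc6, Psmd12 and Psmd9, which is 12.2% of them against 11.5% of the 27025 genes with a promoter. The CCAAT box, bound by the factor NF-Y, stood before 14 of them or 34.1%, against 37.5% of genes, and the cAMP response element TGACGTCA, which shares its first letters with the first motif, before 0 of 41, against 1.77% of genes. For the first motif and the CCAAT box the members' shares were close to those of all genes. Psma6 has another start in RefSeq further into the gene, before which 250 bases held 20 CG dinucleotides, while those before the first start held 2. The median of the 32851 windows of all genes was 6 CG dinucleotides. The FPKM of the gene sum over both starts and cannot tell them apart.

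Of the 49 members, 45 had a mean of at least 1 FPKM over the 6 libraries and were tested with limma on log2(FPKM + 1). The others were Psmb8, Psmb9, Psmb11 and the assembly factor Psmg3. The largest mean levels over the 6 libraries were 270 FPKM for Psma6, an alpha ring gene, 237 FPKM for Psmc3, a base ATPase, and 121 FPKM for Psmd2, a scaffold of the base. Psmd8 of the lid followed with 105 FPKM and Psme4 with 98.0 FPKM. Genes whose products sit side by side in 1 particle thus stood at levels that differed widely, since within the alpha ring Psma7 had 7.36 FPKM and Psma2 8.03 FPKM.

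**Figure D1:**
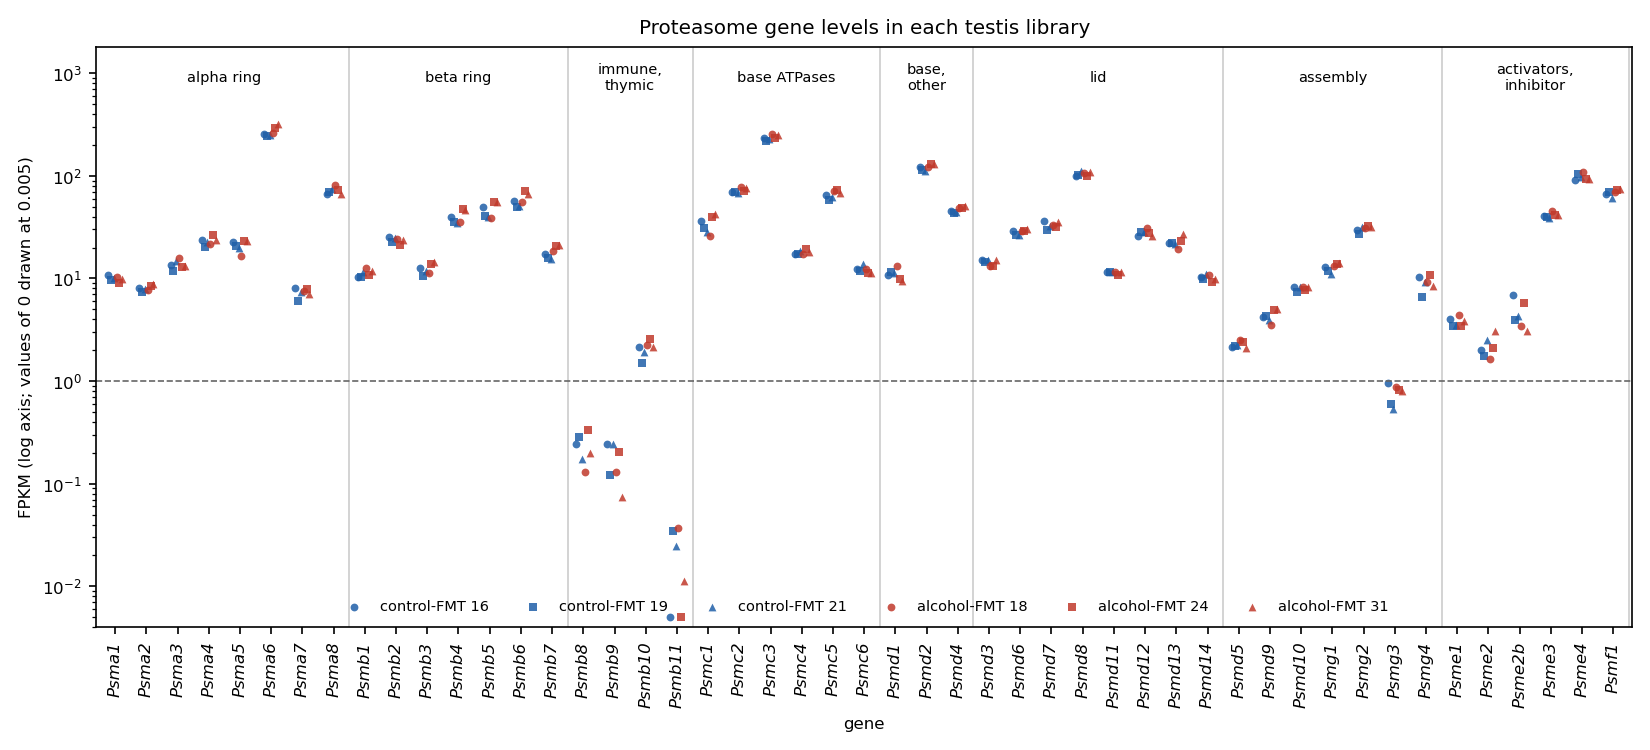
FPKM of the 49 proteasome genes on a log axis, with 1 point for each library, blue for control-FMT and red for alcohol-FMT, and values of 0 drawn at 0.005. The dashed line is the minimum mean of 1 FPKM, below which Psmb8, Psmb9, Psmb11 and Psmg3 lie, and Psma6 and Psmc3 stand at 218 FPKM or more in every library.

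In single libraries Psma6 had 255, 246 and 252 FPKM in control-FMT mice 16, 19 and 21 and 259, 292 and 320 FPKM in alcohol-FMT mice 18, 24 and 31. The groups did not overlap, with mouse 18 close to the control-FMT mice. Psmc3 had 233, 218 and 230 FPKM in control-FMT and 256, 232 and 251 FPKM in alcohol-FMT, where mouse 24 lay below control-FMT mouse 16. Psmd2 had 122, 114 and 111 FPKM in control-FMT and 122, 129 and 129 FPKM in alcohol-FMT, and only mouse 18 came close to the control-FMT range. The mean log2 difference between alcohol-FMT and control-FMT was 0.20 (SE 0.088) for Psma6, 0.12 (SE 0.069) for Psmc3 and 0.13 (SE 0.066) for Psmd2, with adjusted p from limma of 0.689, 0.765 and 0.723.

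The order of levels depended on the gene length behind them. The table's length of a gene was 1 to 3.36 times that of its principal coding transcript in GENCODE, with the largest ratio for Psma7, which had 3071 bases in the table and 914 in the transcript. Per kilobase of the principal transcript, an added calculation, Psmc3 led with 377 FPKM, followed by Psma6 with 320, Psmd8 with 208, Psmc2 with 203, Psmd2 with 165 and Psmb6 with 137. Psma8 then had 71.8 FPKM as the tenth of the members (rank 10), and Psma7 24.7 FPKM at rank 30. The ratio of FPKM between the groups within a gene does not depend on this length. The differences on log2(FPKM + 1) and the minimum of 1 FPKM do. Psmg3, under the minimum at 0.765 FPKM, had 2.51 FPKM on its principal transcript.

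Psma8 lies on chromosome 18, from 14706151 to 14762299 on GRCm38, and was read from 2046 to 2320 fragments in each library. It had 67.0, 69.5 and 73.8 FPKM in control-FMT mice 16, 19 and 21, and 81.3, 73.4 and 65.8 FPKM in alcohol-FMT mice 18, 24 and 31. The alcohol-FMT mice held both the highest and the lowest value. The means were 70.1 ± 3.44 and 73.5 ± 7.75 FPKM (SD, n = 3 in each group), a log2 difference of 0.06 with a 95% interval of -0.15 to 0.28 (limma, SE 0.091, adjusted p = 0.913). Psma7, on chromosome 2 from 180036374 to 180042433, had 8.15, 6.03 and 7.36 FPKM in control-FMT and 7.53, 7.97 and 7.09 FPKM in alcohol-FMT. Here the control-FMT mice held both extremes, with a log2 difference of 0.07 (limma, SE 0.109, adjusted p = 0.918).

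Per kilobase of the table's gene length, Psma8 stood above Psma7 in every library. The ratio of their FPKM was 8.22, 11.5 and 10.0 in control-FMT and 10.8, 9.21 and 9.28 in alcohol-FMT, with means of 9.93 ± 1.65 and 9.76 ± 0.894 (SD, n = 3). On the length of the principal transcripts the mean ratios were 2.96 and 2.91, with single libraries from 2.45 to 3.43, so the size of the excess rests on the gene length while its direction did not change. The group difference of the log2 ratio was -0.01, with an exact two-sided permutation p = 1 (n = 3 in each group), where 0.1 is the smallest p that this design allows. Whole testis RNA cannot tell a larger number of germ cells from more RNA in each.

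The 12 spermatocyte marker genes, the cells in which Psma8 is known to be expressed in mice, had summed levels of 599 to 653 FPKM in control-FMT. In alcohol-FMT these sums were 694 FPKM in mouse 18, 585 in mouse 24 and 591 in mouse 31. Mouse 18 was thus highest for Psma8 and for the sum of the spermatocyte markers, of which 5 of 12 were highest in it and the others in other mice. Mybl1, the transcription factor of meiotic genes and 1 of these 5, had 15.04 FPKM in mouse 18 against 11.4 to 13.8 FPKM in the other libraries. Mybl1 averaged 13.0 ± 0.819 and 12.7 ± 2.06 FPKM (limma, log2 difference -0.04, adjusted p = 0.958). At the unadjusted threshold of 0.05, 0 of the 12 spermatocyte markers were higher and 0 lower. Whether the mix of cells plays a part in the level of Psma8 was not tested.

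**Figure D2:**
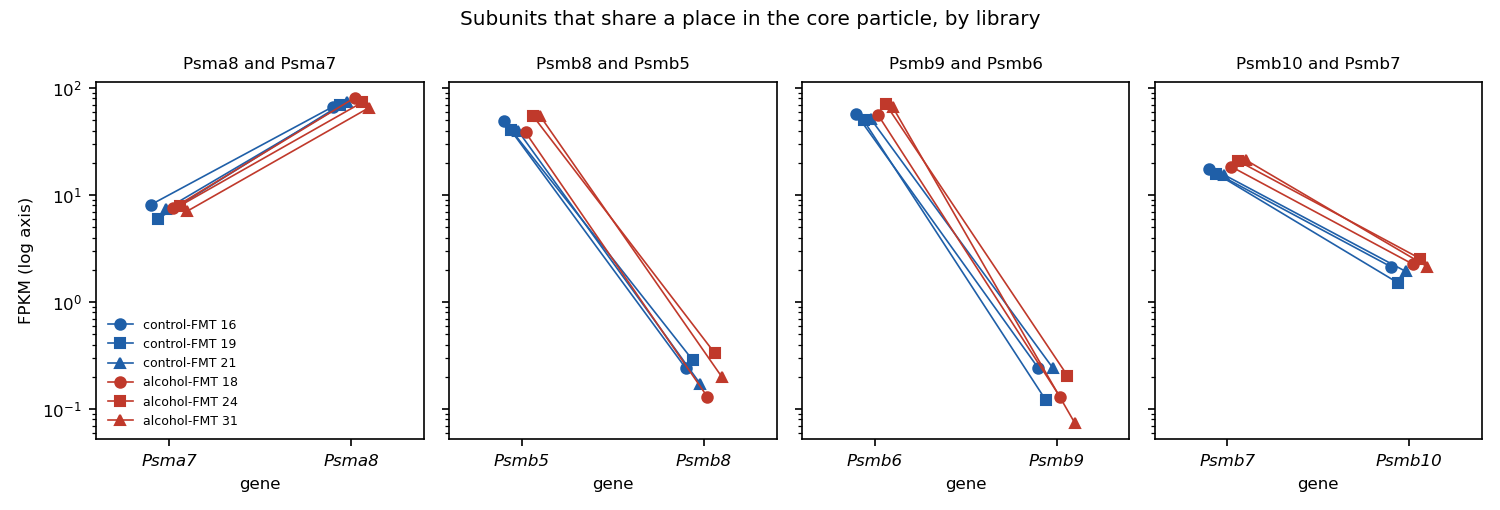
FPKM on a log axis of 4 pairs of genes whose products take the same place in the core particle, with a line for each library, blue for control-FMT and red for alcohol-FMT. Psma8 lies above Psma7 in all 6 libraries by a ratio of 8.22 to 11.5, and the immune genes lie below their constitutive partners in all 6.

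The catalytic beta genes were the members with the largest positive group differences among the constitutive core genes, except that Psma6 and Psmb4 lay above Psmb5. Psmb7, the trypsin-like subunit, had 17.4, 15.8 and 15.5 FPKM in control-FMT and 18.5, 20.8 and 21.4 FPKM in alcohol-FMT. The groups did not overlap, and the means were 16.2 ± 0.984 and 20.2 ± 1.52 FPKM, a log2 difference of 0.30 (limma, SE 0.082, unadjusted p = 0.008, adjusted p = 0.595). Psmb6, the caspase-like subunit, had 56.8, 49.9 and 51.3 FPKM in control-FMT and 55.8, 71.3 and 66.4 FPKM in alcohol-FMT. Mouse 18 of the alcohol-FMT group lay within the control-FMT range, and the means were 52.6 ± 3.67 and 64.5 ± 7.94 FPKM, a log2 difference of 0.28 (limma, SE 0.104, unadjusted p = 0.030, adjusted p = 0.674).

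Psmb5, the chymotrypsin-like subunit and a target of proteasome inhibitors used against myeloma, had 49.7, 40.9 and 39.6 FPKM in control-FMT and 38.6, 55.2 and 55.0 FPKM in alcohol-FMT. Mouse 18 was the lowest of all 6 libraries and the other alcohol-FMT mice the highest. The log2 difference was 0.18 with an SE of 0.156 (limma, adjusted p = 0.848). Mouse 18 thus stood with the control-FMT mice for Psmb5 and Psmb6 and above them for Psmb7. Psmb7 overlaps the gene Nek6 on the other strand, with 255 bases of identical transcript, and Nek6 had on average 81.8 fragments against 1114 of Psmb7. Whether the fragments were counted by strand is not given in the sources used here.

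The immune catalytic genes were near the floor of detection, apart from Psmb10. Psmb8 was read from 12, 14 and 8 fragments in control-FMT and 6, 17 and 10 in alcohol-FMT, or 0.130 to 0.334 FPKM over all libraries. Psmb9 was read from 16, 8 and 15 fragments in control-FMT and 8, 14 and 5 in alcohol-FMT, or 0.0744 to 0.242 FPKM. For both the groups overlapped, and at this depth a group difference of a few fragments is not detectable. Psmb9 also shares 212 bases with Tap1, a peptide transporter gene beside it.

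Psmb11, the thymic subunit gene, had 0, 3 and 2 fragments in control-FMT and 3, 0 and 1 in alcohol-FMT, and a count of 0 allows up to 3 fragments, by counting error alone. Psmb10, which replaces Psmb7 in the immune core particle, had 2.14, 1.51 and 1.94 FPKM in control-FMT and 2.26, 2.55 and 2.14 FPKM in alcohol-FMT. The lowest alcohol-FMT and the highest control-FMT mouse were equal to 3 digits. The means were 1.86 ± 0.323 and 2.32 ± 0.211 FPKM, from 46 to 81 fragments a library, with a log2 difference of 0.22 (limma, SE 0.111, adjusted p = 0.723).

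Against the subunit it replaces, Psmb10 had on average 0.114 of the FPKM of Psmb7 in control-FMT and 0.115 in alcohol-FMT. The log2 difference of this ratio was 0.01 (exact two-sided permutation p = 1), that of Psmb8 to Psmb5 was -0.34 (exact p = 0.4) and that of Psmb9 to Psmb6 was -0.90 (exact p = 0.2). Adjusted over the 4 ratios, these p were 1, 0.8 and 0.8. With 3 mice against 3 no ratio could have reached the threshold.

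Over all members, 5 of the 45 tested were higher in alcohol-FMT at an unadjusted p up to 0.05, namely Psmb6, Psmb7, Psmc5, Psmd4 and Psmg1, and 0 were lower. Of all 15206 genes tested with limma, 4.93% were higher by this measure and 2.34% were lower, and the members' share was 11.1%. After Benjamini-Hochberg adjustment 0 members passed, where 0.0% of all genes did, and 1106 genes, or 7.27%, had an unadjusted p up to 0.05. The smallest adjusted p of a member in limma was 0.595, for Psmb7. On GRCm38, Psmb7 lies on chromosome 2 from 38588036 to 38644087, Psmb6 on chromosome 11 from 70525367 to 70527858, Psmc5 on chromosome 11 from 106256154 to 106263120, Psmd4 on chromosome 3 from 95032694 to 95042614 and Psmg1 on chromosome 16 from 95979933 to 95990960. The median log2 difference of the members was 0.09, against 0.01 for all genes, and 35 of the 45 lay above 0, against 52.5% of all genes. Without control-FMT mouse 19 the median was 0.057 and 30 lay above 0, and with the trend of each library against gene length removed they were 0.055 and 32. In 10 of the 45 members the alcohol-FMT libraries all lay above the control-FMT libraries, against 7.76% of all genes. In 0 of the 45 all lay below, against 5.33%.

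**Figure D3:**
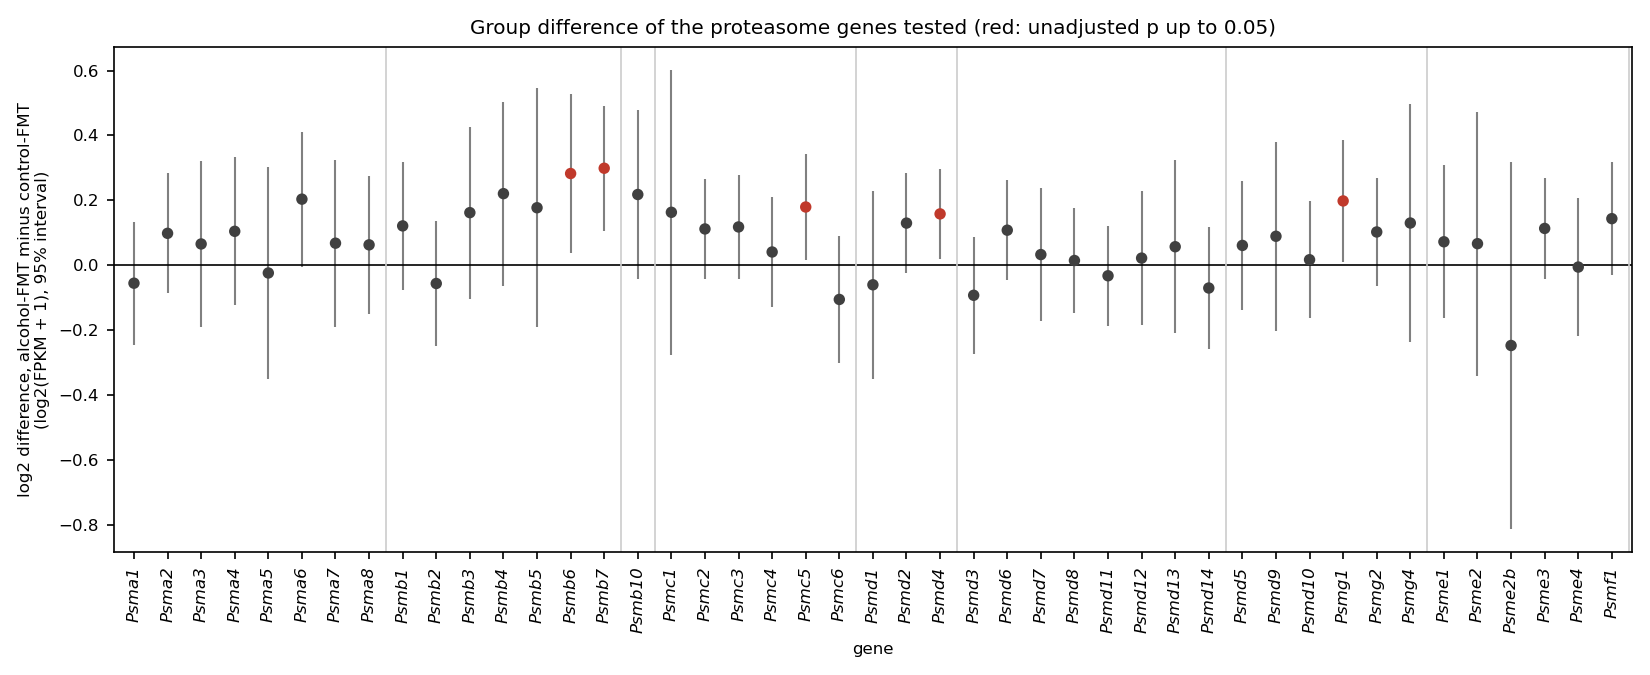
Log2 difference of alcohol-FMT minus control-FMT for the 45 proteasome genes tested, on log2(FPKM + 1), with 95% intervals from limma over 3 libraries in each group. Grey lines part the alpha ring, the constitutive beta ring, Psmb10, the base ATPases, the other base genes, the lid, the assembly factors and the activators with the inhibitor, and the 5 red points, at 0.16 to 0.30, have an unadjusted p up to 0.05.

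Outside the beta ring, 3 members had such an unadjusted p, 2 of them in the base and 1 among the assembly factors. Psmc5, a base ATPase, had 65.6, 57.9 and 62.5 FPKM in control-FMT and 70.9, 71.9 and 68.0 FPKM in alcohol-FMT, without overlap. Its means were 62.0 ± 3.84 and 70.3 ± 2.03 FPKM, a log2 difference of 0.18 (limma, SE 0.070, unadjusted p = 0.036, adjusted p = 0.682). Psmd4, a ubiquitin receptor of the base, had 45.2, 43.0 and 44.6 FPKM in control-FMT and 49.0, 49.1 and 50.4 FPKM in alcohol-FMT. These were the most even groups of the 5 genes, again without overlap, at 44.3 ± 1.13 and 49.5 ± 0.796 FPKM and a log2 difference of 0.16 (limma, SE 0.059, unadjusted p = 0.031, adjusted p = 0.675). Psmg1, a chaperone of alpha ring assembly, had 12.9, 11.7 and 10.9 FPKM in control-FMT and 13.2, 13.9 and 14.1 FPKM in alcohol-FMT. The groups parted by little, at 11.9 ± 1.01 and 13.7 ± 0.484 FPKM with a log2 difference of 0.20 (limma, SE 0.080, unadjusted p = 0.042, adjusted p = 0.685).

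Of the alpha ring genes, which form the gate of the core, 0 of 8 were higher or lower at an unadjusted p up to 0.05. Their median log2 difference was 0.07, with 6 above 0 and a range of -0.06 to 0.20, in which Psma6 was the upper end. Of the 7 constitutive beta genes 2 were higher and 0 lower, with a median of 0.18, 6 above 0 and a range of -0.06 to 0.30. Psmb2 was the only one below 0, at 24.2 ± 1.56 and 23.2 ± 1.63 FPKM. Psmb4, a structural beta subunit, had 39.3, 35.7 and 34.7 FPKM in control-FMT and 35.4, 47.3 and 46.5 FPKM in alcohol-FMT, a log2 difference of 0.22 (limma, adjusted p = 0.744), again with mouse 18 among the control-FMT values.

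The 6 base ATPases, which form the ring that threads substrates into the core, had a median log2 difference of 0.11, with 1 higher, 0 lower and 5 above 0. Psmc1 varied most among them, with 36.1, 31.0 and 28.1 FPKM in control-FMT and 26.2, 39.9 and 42.5 FPKM in alcohol-FMT. Its lowest and its highest value both fell in alcohol-FMT, and the log2 difference of 0.16 had an SE of 0.186. Psmc6 was the ATPase below 0, at -0.11. Of the other base genes, Psmd4 was higher and Psmd1 had 10.7, 11.5 and 11.4 FPKM in control-FMT and 13.1, 9.77 and 9.43 FPKM in alcohol-FMT, where mouse 18 stood above and the others below every control-FMT mouse.

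The 8 lid genes taken by name had a median log2 difference of 0.02, with 0 higher, 0 lower and 5 above 0. They ranged from -0.09 for Psmd3 to 0.11 for Psmd6. The lid gene Sem1 lies outside the name rule and is not in these counts. It had 11.9 ± 1.76 FPKM in control-FMT and 14.5 ± 2.10 FPKM in alcohol-FMT, with overlap (limma, log2 difference 0.26, SE 0.135, adjusted p = 0.725). Psmd14, the deubiquitinase of the lid, had 10.5 ± 0.597 and 9.93 ± 0.709 FPKM. Psmd8, the lid gene of highest level, had 100.2, 102 and 110 FPKM in control-FMT and 107, 100.3 and 108 FPKM in alcohol-FMT, with the groups fully interleaved. Base and lid together had a median of 0.04, with 2 of 17 higher. The rings, base and lid were not tested against each other.

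Of the 7 assembly factors, which build the particles and are not part of the finished proteasome, 6 were tested, with 1 higher, 0 lower and a median log2 difference of 0.10, and all 6 lay above 0. Psmg3, a partner of Psmg4 in alpha ring assembly, had 0.954, 0.598 and 0.530 FPKM in control-FMT and 0.882, 0.817 and 0.809 FPKM in alcohol-FMT, from 26 to 50 fragments a library. Its groups overlapped through control-FMT mouse 16.

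Among the activators and the inhibitor 0 of 6 were higher or lower at an unadjusted p up to 0.05, with a median log2 difference of 0.07 and a range of -0.25 to 0.14. Psme4, the activator known from spermatids, had 90.9, 105 and 98.4 FPKM in control-FMT and 108, 92.6 and 92.8 FPKM in alcohol-FMT. The groups overlapped, at 98.2 ± 7.10 and 97.8 ± 8.90 FPKM, with a log2 difference of -0.01 and a 95% interval of -0.22 to 0.21 (limma, adjusted p = 0.992). As for Psma8, mouse 18 had the highest value of the 6. Psme3, a nuclear activator, had 40.4, 40.0 and 38.5 FPKM in control-FMT and 45.5, 41.8 and 41.5 FPKM in alcohol-FMT, without overlap, and a log2 difference of 0.11 (limma, adjusted p = 0.765).

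Psmf1, an inhibitor of the core in vitro, had 66.2, 69.0 and 60.3 FPKM in control-FMT and 68.9, 72.8 and 74.3 FPKM in alcohol-FMT, a log2 difference of 0.14 (limma, adjusted p = 0.725). Mouse 18 lay just under the highest control-FMT mouse. Psme1, induced by interferon in other tissues, was low, with 4.03, 3.44 and 3.50 FPKM in control-FMT and 4.40, 3.48 and 3.82 FPKM in alcohol-FMT, and the groups overlapped. Its partner Psme2 had 2.004, 1.77 and 2.51 FPKM in control-FMT and 1.65, 2.10 and 3.09 FPKM in alcohol-FMT. Psme2b had 6.86, 3.93 and 4.30 FPKM in control-FMT and 3.47, 5.77 and 3.06 FPKM in alcohol-FMT, a log2 difference of -0.25 with an SE of 0.240. Psme2 and Psme2b were 99.4% identical over 794 bases, so the share of fragments that each received is uncertain.

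Other members share sequence with copies as well. The processed pseudogene Gm13835 was identical to Psma3 over 665 bases and held 535 fragments on average against 943 of Psma3, so the level of Psma3 is uncertain. The copy of Psma4 held 57.7 fragments on average against 977 of the member. The copies of Psma5 held 42.7 and 44.3 against 497, the copy of Psmb3 with most fragments held 42.7 against 509, and Psmd13 shared 329 bases with Sirt3. The copy of Psmb6 held 0.167 fragments on average and the gene inside Psmc5 0.5 fragments, and Psmd4 and Psmg1 had neither a copy nor an overlapping gene in this search.

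Summed over all members, the level was 1682 to 1765 FPKM in the control-FMT libraries and 1820 to 1922 FPKM in the alcohol-FMT libraries, a ratio of 1.09 of the means. The sum over all genes tested did not overlap either, with a ratio of 1.04. For the members' sum, Psma6 and Psmc3 weigh most. By role the ratio was 1.15 for the constitutive beta ring, 1.11 for the alpha ring, 1.09 for the base ATPases and the assembly factors, 1.04 for the activators with the inhibitor and 1.01 for the lid.

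Within the libraries, the members lay above their own mean of 6 in 21, 6 and 19 of 45 cases in control-FMT mice 16, 19 and 21, and in 30, 27 and 33 in alcohol-FMT mice 18, 24 and 31. Control-FMT mouse 19 stood apart, with a median deviation of -0.11 on the log2 scale, the lowest value of 17 members and the highest of 0. The other control-FMT mice had median deviations of -0.01 and -0.03 and the alcohol-FMT mice 0.03 to 0.05. The members did not move as 1 block in mouse 18. There Psma5, Psmb5 and Psmc1 deviated by -0.32, -0.25 and -0.34, while Psma3, Psma8 and Psmd1 deviated by 0.20, 0.18 and 0.25.

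**Figure D4:**
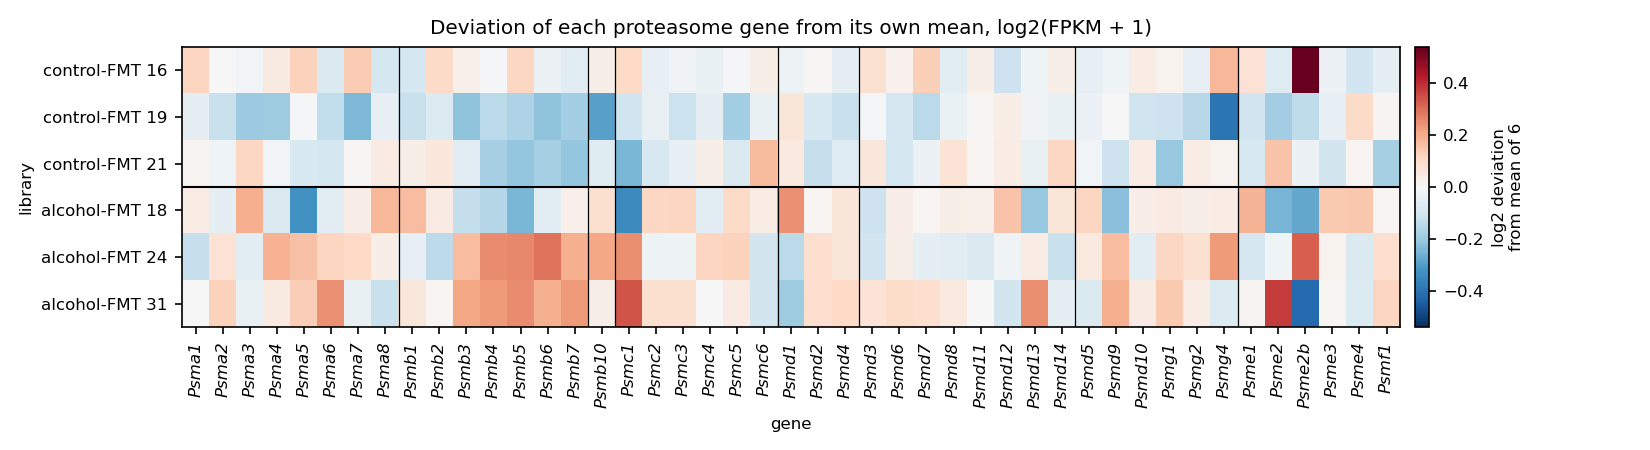
Deviation of each tested proteasome gene from its own mean over the 6 libraries on log2(FPKM + 1), red above and blue below, with the control-FMT libraries in the upper 3 rows and the genes in the order of the roles. Control-FMT mouse 19 is blue for most genes, and alcohol-FMT mouse 18 is blue for Psma5, Psmb5 and Psmc1, where the other alcohol-FMT mice are red.

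Mouse 18 also differed from mice 24 and 31 in the relation of level to gene length over all genes. Its log2 deviation changed by 0.028 for each doubling of the length, against -0.026 in mouse 24 and -0.029 in mouse 31, and the control-FMT libraries lay between 0.001 and 0.017. With this trend taken out of every library, 3 of 45 members were higher at an unadjusted p up to 0.05, where 3.41% of all genes were. These were Psmb6, Psmb7 and Psmd4. Without alcohol-FMT mouse 18, 11 of 45 members were higher, where 12.2% of all genes were. There 1 of 45 was lower, Psmd1, where 5.57% of all genes were. When the FPKM were scaled by library totals instead, the count was 1 of 45, Psmb7, where 2.95% of all genes were. The count also fell to 1, again Psmb7, without control-FMT mouse 19 (2.69% of all genes), without its group mate 21 (2.99%) or without alcohol-FMT mouse 24 (3.17%), and to 2 without alcohol-FMT mouse 31 (3.94%), while it was 4 without control-FMT mouse 16 (4.31%). It was 5 with limma-voom on fragments (4.35%), a pseudocount of 0.1 (4.83%), no filter (3.09%) and a filter on fragments (4.26%). These counts are of 45 members tested, but of 49 with no filter and of 48 with the filter on fragments. Psmb7 had an unadjusted p up to 0.05 under all 12 alternatives, from 0.002 to 0.036 with the main value among them, and Psmb6 under 7.

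A list of 22 associated factors gave 0 higher and 0 lower, with a median log2 difference of 0.00. The list also held the subunit genes Sem1, of the lid, and Adrm1, of the base, which the name rule does not take. The ubiquitin receptor Adrm1 had 21.4 ± 1.37 FPKM in control-FMT and 23.2 ± 2.75 FPKM in alcohol-FMT (limma, log2 difference 0.10, adjusted p = 0.863). Pomp, the maturation factor of the core, had 5.57 ± 0.459 and 5.93 ± 0.309 FPKM (limma, log2 difference 0.08, adjusted p = 0.873). Among 10 regulators of proteasome genes 0 were higher and 0 lower, with a median of -0.05, and Nfe2l1, which drives proteasome gene expression when the proteasome is inhibited, had 14.2 ± 0.861 and 13.7 ± 1.37 FPKM (limma, adjusted p = 0.928).

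Ufd1, a cofactor of the segregase Vcp that draws tagged proteins out of complexes, had 22.5 ± 0.270 FPKM in control-FMT and 25.5 ± 0.532 FPKM in alcohol-FMT (limma, log2 difference 0.17, adjusted p = 0.664). Of 6 tested genes of MHC class I presentation and interferon response, which use the peptides of the immune proteasome, 0 were higher and 1 was lower. Of all genes tested, 2.34% were lower. The median log2 difference of these 6 was -0.003, with 3 of the 6 above 0, so the lower gene did not stand for the genes tested. The list held 12 genes, and the others were under the minimum level. B2m, the light chain of MHC class I, had 39.9, 47.1 and 40.8 FPKM in control-FMT and 35.4, 28.7 and 31.3 FPKM in alcohol-FMT, without overlap (limma, log2 difference -0.41, SE 0.101, adjusted p = 0.569). Tap1 averaged 0.295 and 0.330 FPKM, with overlap, and Tap2 0.419 and 0.276 FPKM, both under the minimum level. Tap2 had 0.424, 0.428 and 0.406 FPKM in control-FMT and 0.314, 0.312 and 0.202 FPKM in alcohol-FMT, without overlap (limma with no filter, adjusted p = 0.853).

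The markers of other cells give the setting of these values. Summed markers of T and B lymphocytes, in which immune proteasome genes are high, were 2.95 to 3.55 FPKM in control-FMT and 2.85 to 3.58 FPKM in alcohol-FMT, and those of macrophages 28.7 to 30.4 and 21.4 to 29.5 FPKM. The 8 elongating spermatid markers, the most abundant germ cell list, summed to 19144 to 21115 FPKM in control-FMT and 18637 to 26726 FPKM in alcohol-FMT. Summed epididymis markers reached 14.7 FPKM in alcohol-FMT mouse 31, against 0.961 to 1.99 FPKM in the other libraries. Most of this came from Crisp1 with 9.03 FPKM and Cuzd1 with 4.44 FPKM. Of the 8 markers 5 were highest in mouse 31, while Gpx5, Lcn5 and Lcn8 had 0 FPKM there. No marker was at 0 in all libraries. The part of these differences in the members' levels was not tested.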

How the data were processed

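Total RNA of the testes of 3 control-FMT and 3 alcohol-FMT mice was sequenced by the authors from Illumina TruSeq libraries, 1 for each mouse. The methods name TopHat2 as the aligner and DESeq2 for the authors' own test, while HISAT2 2.0.5, mm10 and mm8 stand in the submitters' processing notes. The authors deposited FPKM values with gene lengths and GRCm38 positions. The totals behind their scaling, relative to the fragments in genes, ranged from 0.977 to 1.02 of the geometric mean over libraries. The paper does not state how this scaling was made. Values times gene length were whole multiples of 1 step for 100% of values within 0.01, which gave the fragments.

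The 15206 genes that averaged 1 FPKM or more were compared between groups on log2(FPKM + 1) by limma 3.58.1 (R 4.3.3), a scale that understates changes of low genes, with a mean-variance trend and Benjamini-Hochberg adjustment over all genes. Ratios were compared with exact permutation tests (SciPy 1.17.1, Python 3.11.15). The test was tested on simulated data. Values are mean ± SD, and the threshold was 0.05.

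The members and lists were chosen with earlier results of these data known. Values for every library are given for Psma8, Psma7, the catalytic beta genes with their immune and thymic counterparts, the activators and inhibitor, members at an unadjusted p up to 0.05, the 3 highest and 3 lowest, and members under the minimum. Psmd8, Psmb4, Psmc1 and Psmd1, the lid gene Sem1, and the markers Lyz2, Adgre1, Cd68, Insl3 and those named of the epididymis were chosen after their values were seen. Outside genes were those of the related lists at an unadjusted p up to 0.05 and Tap1, Tap2, Adrm1, Pomp, Nfe2l1 and Mybl1. A gene that this rule names, and the counts of its list, are not reported here. Alternatives were limma-voom on fragments, a pseudocount of 0.1, no filter, a fragment filter (at least 10 in 3 libraries, 15 over all), library totals, removal of the length trend, ratios of FPKM + 1 and leaving out each library. Lists of spermatogonia, spermatocytes, round and elongating spermatids, Sertoli, Leydig, peritubular myoid and endothelial cells, macrophages, lymphocytes and epididymis served as markers.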

Additional observations from a re-analysis of the deposited data

How the results depend on the processing

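After Benjamini-Hochberg adjustment 0 members were called under any alternative. The 5 members higher at an unadjusted p became 1 with library totals and 3 with the length trend removed, and 1 to 11 when single libraries were left out, with 4 of the 11 without alcohol-FMT mouse 18 among the 5. The lower count of 0 became 1 without mouse 18, within a range of 0 to 1. The count stayed 5 with limma-voom (4 of them the same), a pseudocount of 0.1, no filter and the fragment filter. The members' median log2 difference of 0.09 was 0.06 to 0.11 over all alternatives, with 0.057 without control-FMT mouse 19 and 0.055 with the length trend removed. The Psma8 to Psma7 log2 ratio difference of -0.01 ranged from -0.14 to 0.10 when single libraries were left out, turning to 0.10 when control-FMT mouse 19 was left out, 0.03 for alcohol-FMT mouse 24 and 0.02 for its group mate 31. The Psmb10 to Psmb7 difference of 0.01 turned to -0.081 with 1 added to FPKM, and to -0.11 at the lowest and -0.04 when single libraries were left out. The transcript lengths were chosen after seeing the data. No paired analysis was made, because the groups are different mice and no pairing is stated. The methods name 5 donor mice for each group and do not say which recipient received whose stool. The recipients of a group may therefore share donors. With 3 mice a group, p-values cover the spread between these mice only.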

Other observations

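Round spermatid markers summed to 635 to 677 FPKM in control-FMT and 661 to 666 FPKM in alcohol-FMT, and 1 of 9 was higher at an unadjusted p. Sertoli cell markers summed to 325 to 361 and 310 to 367 FPKM, with 0 of 8 higher or lower at an unadjusted p up to 0.05. Of these 8 Sertoli cell markers, 1 had a log2 difference above 0, the median was -0.10, and in 3 all alcohol-FMT libraries lay below all control-FMT libraries, against 5.33% of all genes tested. Leydig cell markers summed to 393 to 507 FPKM in control-FMT and 318 to 444 FPKM in alcohol-FMT, with 0 of 7 higher or lower. The mean sums were 449 and 366 FPKM, of which Insl3 alone averaged 296 and 222 FPKM. Of the 7 Leydig cell markers, 2 had a log2 difference above 0, and the median was -0.12. Spermatogonia markers summed to 39.5 to 44.4 and 40.1 to 47.1 FPKM, peritubular myoid markers to 27.4 to 32.9 and 26.7 to 32.0 FPKM, and endothelial markers to 5.56 to 6.74 and 5.72 to 6.36 FPKM.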
